A study of Mus musculus with 6 samples.

Results

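Simple epithelia build their intermediate filaments from a small group of keratins and hold their cells together with a small group of surface proteins, and 7 genes of these groups were followed here in Flk1-positive cells that carried or lacked Ldb1. The genes were Krt7, Krt8, Krt18 and Krt19, which encode keratins, and Epcam, Cdh1 and Cldn6, which encode adhesion proteins. All 7 were found among the 18193 genes of the array to which at least 1 probe set was assigned alone, and they were read by 10 of 34945 such probe sets. The 7 genes were selected on their epithelial role with their knockout minus wild-type differences already known, so those differences are given as a description, without a test. The probe set used for a gene was chosen by its mean level over the 6 arrays, the highest being taken, and the remaining probe sets are given beside it.

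The cells came from mouse embryonic stem (ES) cells, either Ldb1+/+ (wild type) or Ldb1-/- (knockout), that had been grown in suspension without leukaemia inhibitory factor into embryoid bodies. Flk1+ cells, labelled as blast colony-forming cells (BL-CFC), were taken at day 4 as an in vitro equivalent of the haemangioblast, from which blood and endothelium arise, and the question of the series is the role of the adaptor protein LDB1 at that stage. RNA was hybridised to 6 Affymetrix mouse genome arrays, 3 labelled biological replicates per genotype, and each value is a log2 expression level, so that a difference of 1 is a doubling. The labels do not say how many ES cell clones were used per genotype, how Ldb1 was inactivated, or what the replicate numbers share. If each genotype is 1 clone, the effect of the clone and that of Ldb1 cannot be told apart, and the arrays measure a mixture in which more cells of a type and more RNA per cell cannot be told apart either.

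Keratins form filaments only as pairs of a type II chain, such as keratin 7 or 8, with a type I chain, such as keratin 18 or 19. Keratins 8 and 18 are the first pair made by the embryo, in the trophectoderm, and they are also typical of simple epithelia such as visceral endoderm. E-cadherin (Cdh1) makes adherens junctions, claudin 6 (Cldn6) belongs to tight junctions of embryonic epithelia, and EpCAM (Epcam) is a surface protein of epithelia and of ES cells. Cells that pass through the primitive streak to become mesoderm lose E-cadherin, which Snail and Zeb family repressors bring about by binding E-boxes in its promoter.

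The arrays had medians between 5.71 and 5.77, lower quartiles between 4.22 and 4.37 and upper quartiles between 7.92 and 8.27, with the lowest upper quartile in wild-type replicate 3. The replicate 3 arrays of both genotypes differed from the rest in control probe sets, where the 5′ control of Actb read 12.97 and 13.22 on them and between 11.19 and 11.49 on the other 4 arrays. The 5′ control of Gapdh read 12.93 on both, against 10.19 to 11.11 on the other 4. The 3′ control of Actb differed little, at 14.20 to 14.51 over all 6. What this 5′ difference, as of RNA quality or labelling, does to other levels on replicate 3 was not tested. Ldb1 itself was read by 1 probe set used here at 7.78, 7.31 and 8.31 in wild-type replicates 1, 2 and 3 and at 7.25, 6.60 and 8.25 in the knockout ones. The genotypes overlapped, and a probe set outside the deleted part would not check the label. Kdr, the gene of Flk1, lay above the upper quartile on all 6 arrays. After the mean of its genotype was subtracted from every array, arrays of the same number were alike over all genes (r = 0.707, 0.322 and 0.456 for numbers 1, 2 and 3). Differences are therefore given by replicate number as well as by genotype.

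Among the genes, 3 keratins were higher in knockout cells in every replicate, while the adhesion genes showed no common direction and Krt7 and Cldn6 were dim on all arrays. Krt19 differed by a mean of 1.21, which is 2.31-fold, Krt18 by 0.68 or 1.60-fold, and Krt8 by 0.65 or 1.57-fold. Cdh1 had a mean difference close to that of Krt8 but a spread many times as wide. Over all genes 4 passed in limma at an adjusted p of 0.05 (0.022%), and 0 of the 7 genes were among them. When the fit took the number as a block, 62 genes passed (0.341%), and Krt19 was the 1 gene of the 7 among them. Since the genes were picked with this contrast in view, nothing is read from these counts. The groups did not overlap, with knockout higher, for Krt8 and Krt19, which was the case for 3.45% of all genes. The knockout array was higher in all 3 pairs for Krt8, Krt18 and Krt19, as it was for 13.5% of all genes.

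**Figure D1:**
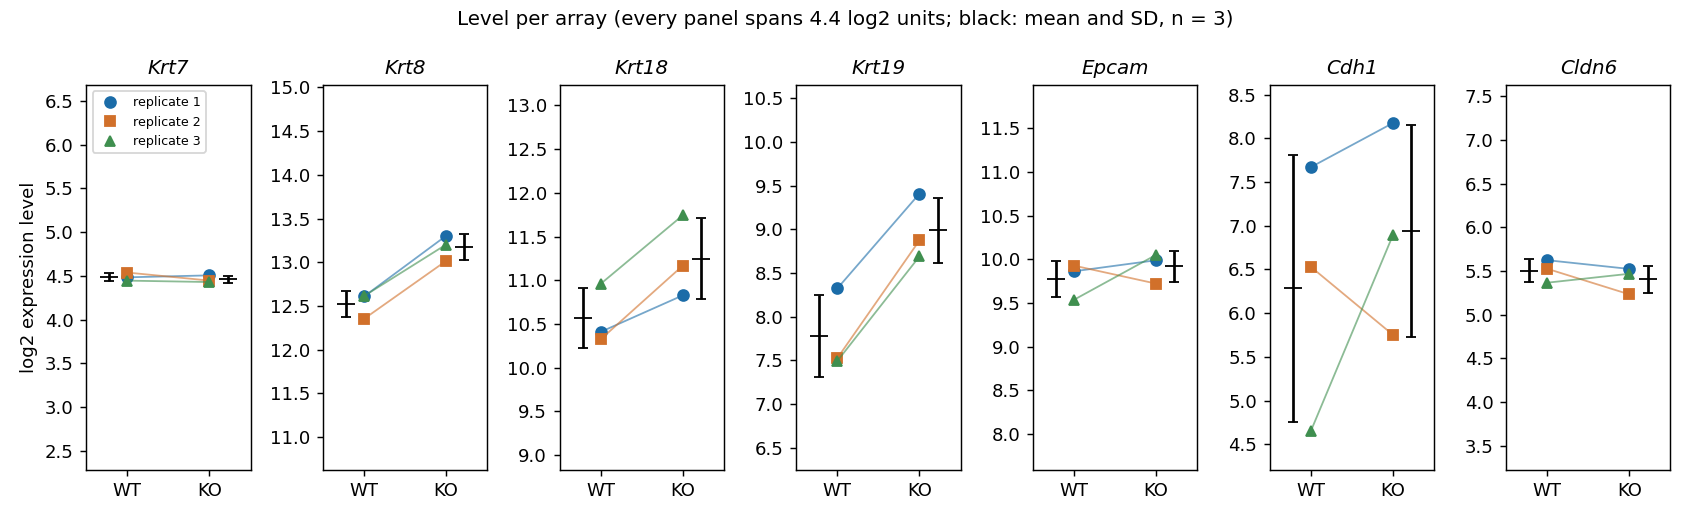
Log2 expression level of each of the 7 genes on each array, with wild type (WT) at the left and knockout (KO) at the right of a panel; lines join arrays of the same replicate number, and black bars give the mean and SD of 3 arrays. Krt8 and Krt19 separated the genotypes fully, Krt18 was higher at the knockout end of every line with overlap between groups, and Cdh1 spread from 4.65 to 8.17.

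Keratin 8, the type II partner of keratins 18 and 19, had pair differences that were close to each other. Its level was 12.61, 12.35 and 12.61 in wild-type replicates 1, 2 and 3 and 13.30, 13.02 and 13.20 in the knockout replicates. Every knockout array was above every wild-type array, with means of 12.53 ± 0.15 and 13.17 ± 0.15 (SD, n = 3). By replicate number the differences were 0.69, 0.66 and 0.59, a span far below the difference itself. The SE of the mean difference was 0.14.

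The other Krt8 probe sets gave the same picture. One read 12.41, 12.19 and 12.43 in wild-type and 13.09, 12.78 and 12.93 in knockout arrays, a difference of 0.59. The other read 12.37, 12.09 and 12.41 against 13.09, 12.77 and 13.10, a difference of 0.70. Neither showed an overlap between genotypes. Both are of a design that can bind several similar transcripts, and RefSeq lists 1 pseudogene named for Krt8 on chromosome 7, which had no probe set of its own here. Its share in the signal was not tested.

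Krt18, which encodes the type I chain that pairs with keratin 8, lay at 10.41, 10.33 and 10.96 in wild-type and 10.83, 11.17 and 11.74 in knockout replicates. The genotypes overlapped, because knockout replicate 1 was below wild-type replicate 3. Within each genotype replicate 3 was the highest array, so that the replicates of one number moved together and the pair differences of 0.42, 0.84 and 0.78 were all positive. Means were 10.57 ± 0.34 and 11.25 ± 0.46 (SD, n = 3), with an SE of the difference of 0.28, or 0.14 when the replicate number was a block. Without knockout replicate 3 the difference was 0.43.

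Krt19 encodes a type I keratin that lacks most of the tail domain and is found in many simple and ductal epithelia. It read 8.32, 7.53 and 7.49 in wild-type and 9.41, 8.87 and 8.69 in knockout replicates. The lowest knockout array was thus above the highest wild-type array, and replicate 1 was the highest of its genotype in both. Means were 7.78 ± 0.47 and 8.99 ± 0.37 (SD, n = 3). The pair differences of 1.08, 1.35 and 1.20 were each larger than any of Krt8 or Krt18, and the SE was 0.29, or 0.13 with the block. Krt19 lies on chromosome 11, where the median difference over 1452 genes was −0.16 and 19.8% of genes were higher in knockout cells, so it went against most of its chromosome.

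Krt7 encodes a type II keratin of ducts and of trophoblast. It read between 4.44 and 4.54 in wild-type and between 4.43 and 4.50 in knockout arrays, with a mean difference of −0.03. On each array 26.5% to 31.4% of all probe sets read lower, and all 6 values were below the array's median. The files give no detection calls, so it is not known whether Krt7 was above background at all. The 3 keratins that were higher were thus 1 type II gene and both type I genes of the 4.

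**Figure D2:**
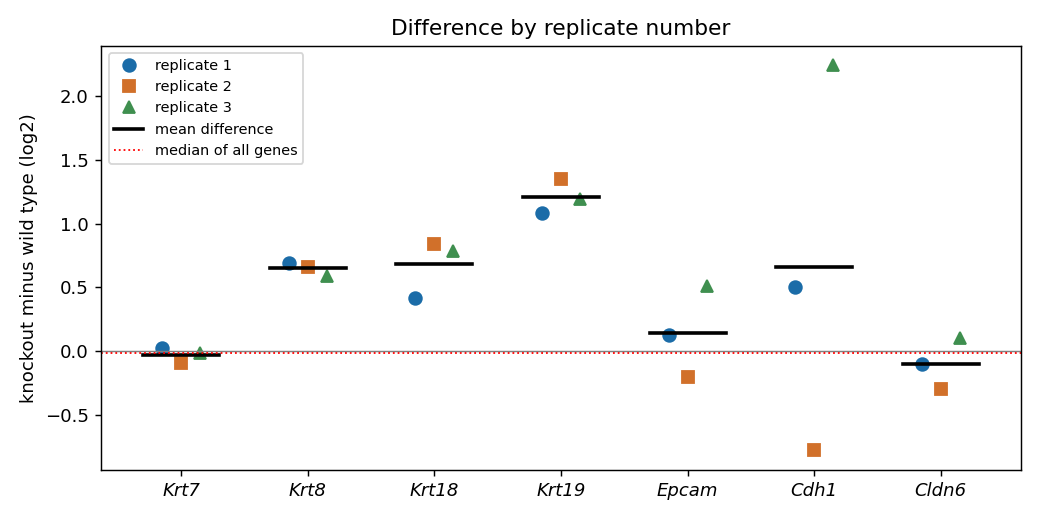
Knockout minus wild-type difference (log2) of each gene for replicate numbers 1, 2 and 3, with a bar at the mean difference and a dotted line at the median over all 18193 genes. For Krt8, Krt18 and Krt19 all 3 points lie above 0, from 0.42 to 1.35, while those of Cdh1 run from −0.78 to 2.24.

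The Epcam difference was smaller than the SD of the replicates in either genotype. It read 9.86, 9.93 and 9.54 in wild-type and 9.99, 9.72 and 10.05 in knockout replicates, and the groups overlapped throughout. The difference was 0.14 with an SE of 0.16, and by pair it was 0.13, −0.21 and 0.51. A second Epcam probe set, of a design that can bind several transcripts, differed by −0.10 and had its highest value, 7.87, in wild-type replicate 3. Epcam lay above the upper quartile on all 6 arrays, so its transcript was well within the measured range in both genotypes.

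Cdh1, which encodes E-cadherin, varied most of the 7 genes. It read 7.67, 6.53 and 4.65 in wild-type and 8.17, 5.75 and 6.89 in knockout replicates. Wild-type replicate 3 was the lowest array and lay below its own median, and replicate 1 was the highest array of both genotypes. Means were 6.28 ± 1.53 and 6.94 ± 1.21 (SD, n = 3), and the difference of 0.66 had an SE of 0.87. By pair it was 0.50, −0.78 and 2.24, so that pair 2 went the other way. Without wild-type replicate 3 the mean difference was −0.16, without knockout replicate 1 it was 0.04, and without both arrays of number 3 it was −0.14. Cdh1 is on chromosome 8, whose 940 genes had a median difference of 0.15. Of these, 70.9% were higher in knockout cells, beside 46.3% of all genes.

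Cldn6 read 5.62, 5.52 and 5.37 in wild-type and 5.52, 5.23 and 5.47 in knockout replicates. All 6 values were below the array medians, and the groups overlapped, with a difference of −0.10 (SE 0.14). Its sign was not shared by the pairs, at −0.10, −0.29 and 0.10.

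Over the 7 genes the median difference was 0.65, against −0.01 over all genes, and 5 of the 7 were higher in knockout cells against 46.3% of all genes. This median depended on single arrays. Without wild-type replicate 3 it was 0.03, without knockout replicate 1 it was 0.11, without knockout replicate 3 it was 0.43, and without both arrays of number 3 it was −0.035. The middle gene in these 4 cases was Epcam, Epcam, Krt18 and Krt7. Without both replicate 3 arrays Krt8, Krt18 and Krt19 differed by 0.68, 0.63 and 1.22, close to their values over all arrays. They stayed positive under each of the 12 or 13 other settings tried for them, with lowest values of 0.56, 0.43 and 1.00. Leaving arrays out could not turn the sign for Krt8 or Krt19, whose groups did not overlap. Leaving out a pair could not turn it for Krt18, whose pairs were all positive.

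The RefSeq annotation of GRCm38.p6 places Krt8 and Krt18 next to each other on chromosome 15, with 0 protein-coding genes between them, at the edge of the type II keratin cluster. The 5 protein-coding genes on either side were therefore read as well, and 9 of these 10 had a probe set. Their mean differences ran from −0.24 for Krt78 to 0.41 for Tns2, which encodes the focal adhesion protein tensin 2. The genotypes overlapped for all 9, where 7.92% of all genes did not overlap in either direction. Krt77, Krt76, Krt4 and Krt79 were below every array's median, as was Igfbp6. Eif4b, a translation factor gene next to Krt18, differed by −0.16. Over the 729 genes of chromosome 15 the median difference was −0.03.

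**Figure D3:**
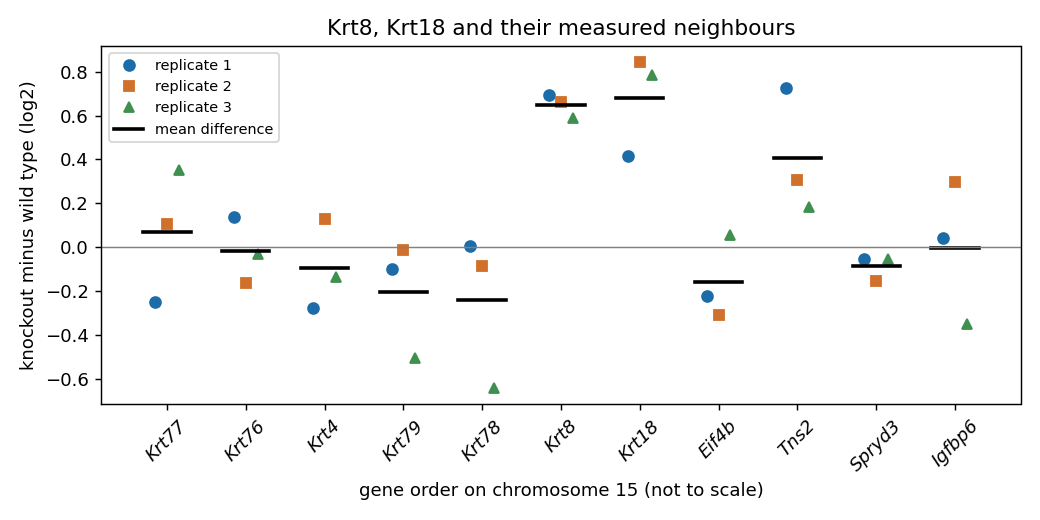
Knockout minus wild-type difference (log2) by replicate number for Krt8, Krt18 and the 9 measured genes among the 5 on either side, in their order on chromosome 15, with a bar at the mean. Krt8 and Krt18 are the 2 genes with all points above 0.4; Tns2 has its points at 0.73, 0.31 and 0.18.

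Because the neighbouring genes Krt8 and Krt18 were higher together, the 250 bases before the start of each are shown, with those of Epcam, which was not, for comparison. Sequences are from RefSeq on GRCm38.p6, 5′ to 3′ on the strand of the gene, and 5 of the 7 genes had an entry. Krt19 and Cdh1 had none, so the search did not cover them. Capitals mark matches on either strand to CACCTG, the E-box form that Snail and Zeb proteins bind, to the GATA motif AGATAA, or to the GC box GGGCGG. The Krt8 stretch is chr15:102004343-102004592 on the minus strand, that of Krt18 chr15:102027966-102028215 on the plus strand and that of Epcam chr17:87635729-87635978 on the plus strand.
Krt8: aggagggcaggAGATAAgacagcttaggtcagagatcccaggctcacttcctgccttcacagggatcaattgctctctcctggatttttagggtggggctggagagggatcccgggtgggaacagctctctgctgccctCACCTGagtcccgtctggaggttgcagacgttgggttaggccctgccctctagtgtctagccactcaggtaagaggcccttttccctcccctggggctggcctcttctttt
Krt18: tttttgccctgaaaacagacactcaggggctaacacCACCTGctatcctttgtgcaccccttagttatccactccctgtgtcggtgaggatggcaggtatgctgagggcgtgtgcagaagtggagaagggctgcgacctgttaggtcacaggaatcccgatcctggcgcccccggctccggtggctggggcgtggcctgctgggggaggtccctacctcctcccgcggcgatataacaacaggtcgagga
Epcam: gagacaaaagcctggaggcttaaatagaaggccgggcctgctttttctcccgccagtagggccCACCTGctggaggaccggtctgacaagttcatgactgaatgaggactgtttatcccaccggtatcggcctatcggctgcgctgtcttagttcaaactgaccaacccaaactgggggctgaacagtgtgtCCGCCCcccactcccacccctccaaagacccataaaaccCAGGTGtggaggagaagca

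The motif CACCTG occurred in all 5 stretches, once each for Krt7, Krt8, Krt18 and Cldn6 and 2 times for Epcam. Of 32851 RefSeq promoter stretches of this length 17.2% held it. AGATAA, a form of the motif that the LDB1 partner GATA1 binds, occurred 1 time, 239 bases before the Krt8 start, and in 9.99% of all stretches. The E-boxes CAGCTG and CAGATG, in 13% and 14.4% of all stretches, and the AP-1 motif TGANTCA, in 6.75%, had 0 matches in the 5. The GC box, in 32.7% of all stretches, had 4 matches for Krt7, 2 for Cldn6, 1 for Epcam and 0 for Krt8 and Krt18. None of these motifs contains another, and the matches describe the sequence only: no binding was measured. E-box matches were present both before genes that were higher in knockout cells and before genes that were not.

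To see whether other epithelial genes went the same way, 5 lists were read, for other keratins, adherens junctions and desmosomes, tight junctions, epithelial surface proteins, and epithelial transcription factors and splicing regulators. They held 95 genes, of which 90 were measured and 35 lay below every array's median. Of the 90 measured genes 45 were higher and 45 lower in knockout cells, with a median difference of 0.00, against −0.01 over all genes. In limma 0 passed without the block, where 5 had an unadjusted p under 0.05 (3.85% of all genes did), and 0 passed with it, where 11 did (8.94% of all genes). The knockout array was higher in all 3 pairs for 14 and lower in all 3 for 11, which is 15.6% and 12.2% of the list, beside 13.5% and 14.9% of all genes.

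The 14 other keratins had a median of −0.05, and 11 of them were below every array's median. Krt10, a type I keratin of the upper epidermis, was the 1 among them whose genotypes did not overlap with knockout higher, at 8.08, 8.03 and 7.27 in wild-type and 8.47, 8.27 and 8.33 in knockout arrays. Its difference of 0.56 did not pass (limma, adjusted p = 1.00, blocked 0.402). Krt80 and Krt6a differed by 0.02 and −0.20.

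The 19 adherens junction and desmosome genes had a median of 0.02. The catenin genes Ctnnb1 and Ctnna1, whose products link cadherins to actin, differed by −0.06 and 0.02. Dsp encodes desmoplakin, which ties keratin filaments to desmosomes. It read 11.76, 10.89 and 10.41 in wild-type and 12.24, 11.45 and 11.23 in knockout replicates, with the groups overlapping and pair differences of 0.48, 0.56 and 0.81, and did not pass (limma, adjusted p = 1.00, blocked 0.176). Perp, which encodes a desmosomal membrane protein, read 7.76, 7.28 and 7.08 in wild-type and 8.59, 8.41 and 8.69 in knockout replicates. Those groups did not overlap, at a difference of 1.19, and it did not pass (limma, adjusted p = 0.313, blocked 0.0664).

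The 21 tight junction genes had a median of 0.01. Among them Cldn12, Tjp1 and Pard6b, which had the highest means, differed by −0.04, 0.13 and −0.49, and 0 of the 3 separated the genotypes. The 19 epithelial surface genes had a median of −0.01. Cd24a, a surface glycoprotein gene of many progenitor cells, differed by 0.62 (limma, adjusted p = 1.00, blocked 0.299), and Itga6 and Prom1 by −0.24 and −0.02. The 17 epithelial regulators had a median of 0.08, with 8 below every array's median. Klf5, a transcription factor gene of epithelia and of ES cells, differed by 0.76, Klf4 by −0.52 and Tfap2c by 0.03, all with overlapping genotypes.

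Mesenchymal counterparts had no common direction. Of 18 such genes 9 were higher and 9 lower, with a median of −0.02, and 0 passed in limma with or without the block. An unadjusted p under 0.05 was found for 0 without the block (3.85% of all genes) and for 1 with it (8.94%). Vim encodes vimentin, the intermediate filament protein of mesenchyme. It read 12.18, 12.26 and 12.59 in wild-type and 12.73, 13.03 and 12.55 in knockout replicates. It was higher in the knockout array of pairs 1 and 2 and lower in pair 3, with a mean difference of 0.42 (limma, adjusted p = 1.00, blocked 0.569). Fn1, the fibronectin gene, differed by 0.06 and Cdh11, a mesenchymal cadherin gene, by 0.24. These 3, named for their high means, were all higher, although 9 of the list were lower. The 1 gene with an unadjusted p under 0.05 in the blocked fit was Sparc. It differed by −0.61 and was lower in all 3 pairs, with overlapping groups (limma, blocked adjusted p = 0.176).

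**Figure D4:**
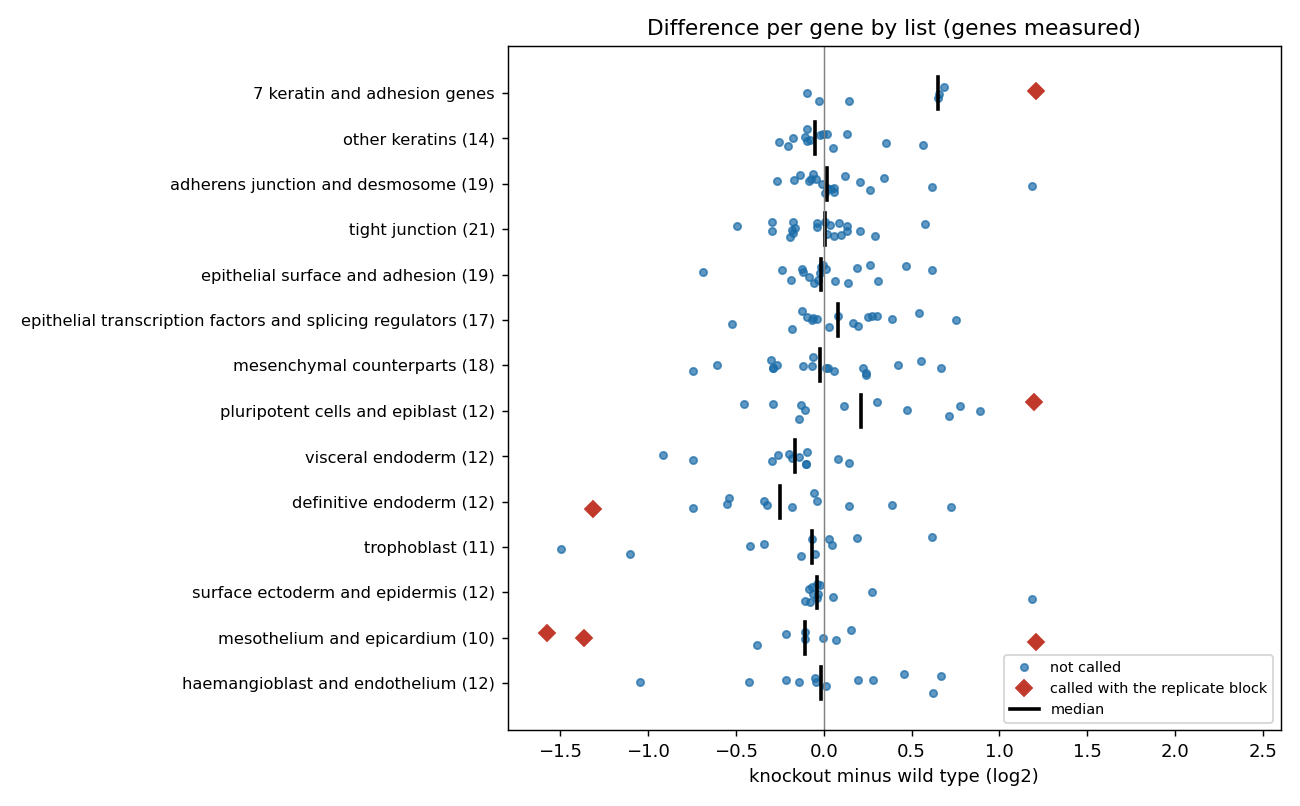
Knockout minus wild-type difference (log2) of each measured gene in each list, with a bar at the list's median; red diamonds passed limma at an adjusted p of 0.05 in the blocked fit. The 5 epithelial lists centre near 0 with 0 diamonds, and the keratin and adhesion genes have 1, Krt19, which is also in the mesothelium list.

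Marker lists of other cell types that an embryoid body holds were read beside the keratins. The pluripotency and epiblast list had 12 measured genes, of which 7 were higher and 0 lay below every array's lower quartile. Its median difference was 0.21, from −0.049 without knockout replicate 3 to 0.63 without knockout replicate 2, and 0.0055 among its genes above the median level. Its mean level ran from 8.03 to 8.54 in wild-type and from 8.02 to 8.75 in knockout arrays. Dppa5a, a gene of ES cells, was its 1 member to pass. It read 10.74, 10.50 and 10.71 in wild-type and 11.69, 11.78 and 12.06 in knockout replicates, 2.29-fold higher (limma, adjusted p = 0.148, blocked 0.0315), and was higher in all 3 pairs. Tdgf1 and Dnmt3b, the members with the highest means, differed by −0.14 and −0.10. Groups were apart with knockout higher for 2 of the 12, Dppa5a and Zfp42 (difference 0.78), and with knockout lower for 0. Over all genes 3.45% were apart with knockout higher. In limma 2 of the 12 had an unadjusted p under 0.05 (3.85% of all genes), and 3 had with the block (8.94%).

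The pairs of this list had the same order as those of Cdh1 and of the Epcam probe set used. Its median difference was 0.06, −0.06 and 1.11 in pairs 1, 2 and 3, beside 0.50, −0.78 and 2.24 for Cdh1 and 0.13, −0.21 and 0.51 for Epcam. All 3 measures were thus lowest in pair 2 and highest in pair 3, whereas Krt8 had its smallest difference in pair 3. The second Epcam probe set had the reverse order, at −0.06, 0.15 and −0.38. How many of all genes had either order was not counted. The part of pluripotent or epiblast cells in the Cdh1 and Epcam values was not tested.

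**Figure D5:**
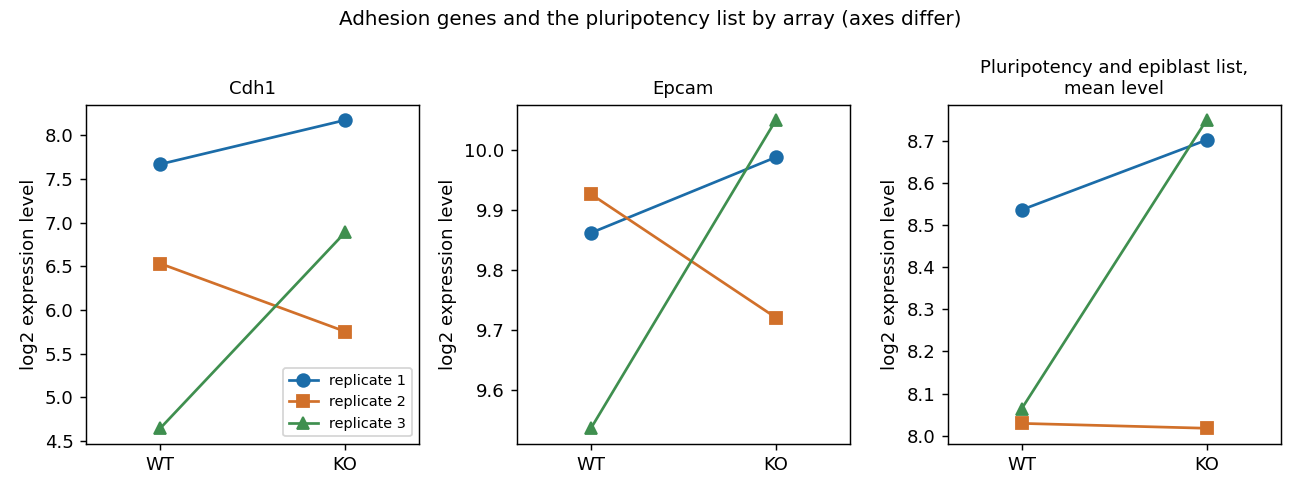
Log2 level per array of Cdh1, of Epcam and of the mean over the 12 measured pluripotency and epiblast genes, wild type (WT) at the left and knockout (KO) at the right, with lines joining arrays of the same replicate number and a separate scale for each panel. In all 3 panels the knockout end is lower for replicate 2 and higher for replicates 1 and 3, and the step is largest for replicate 3.

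Lists of other epithelia that make keratins 8, 18 and 19 had medians below 0 over all arrays and measured genes. Some of these signs turned: the trophoblast median was 0.035 without knockout replicate 3, and without both arrays of number 3 the surface ectoderm median was 0.13 and that of mesothelium 0.025. The surface ectoderm median was also 0.097 without wild-type replicate 3 alone. Among genes above the median level alone, the surface ectoderm and mesothelium medians were 1.19 and 0.50. The first was the difference of Perp alone. The second lay midway between the only remaining genes, Lrrn4 (−0.22) and Krt19 (1.21), and Krt19 is itself 1 of the 7. The median over 12 measured visceral endoderm genes was −0.16 with 10 of them lower, a mean level of 6.46 to 6.59 in wild-type and 6.08 to 6.45 in knockout arrays, and 1 gene, Fgb, below every lower quartile. In limma 0 of them passed, where 1 had an unadjusted p under 0.05 (3.85% of all genes), and 2 had with the block (8.94%). Rbp4, a retinol carrier gene, had its groups apart with knockout lower by 0.92 (limma, adjusted p = 0.755, blocked 0.0910), and Gata6 and Gata4, endoderm and heart regulators, differed by 0.08 and −0.29. Over 11 measured trophoblast genes, 7 of them lower, the median was −0.06, with a mean level of 7.43 to 7.93 in wild-type and 7.01 to 7.69 in knockout arrays, and Elf5, Esx1 and Tpbpa below every lower quartile. In limma 1 of these genes had an unadjusted p under 0.05 (3.85% of all genes), and 4 had with the block (8.94%). Of these 4, Gata3 was higher, by 0.62, and the rest were lower. The highest members of the list, Eomes, Hand1 and Plac1, differed by 0.19, −1.10 and −1.49 (limma, blocked adjusted p of 0.921, 0.313 and 0.325). By pair Hand1 differed by −1.59, −0.05 and −1.67 and Plac1 by −1.81, −0.05 and −2.63. Both were thus nearly level in pair 2, and their groups overlapped. Eomes also marks early mesoderm. Other genes of these lists may be expressed in mesoderm too, so the medians are not read as amounts of a cell type.

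Over 12 definitive endoderm genes, 9 of them lower, the median was −0.25, with a mean level of 6.98 to 7.61 in wild-type and 6.80 to 7.52 in knockout arrays, and Nepn below every lower quartile. In limma 1 of them had an unadjusted p under 0.05 (3.85% of all genes), and 6 had with the block (8.94%). Of these 6, Gsc and Foxa1 were higher, by 0.72 and 0.39, and the rest were lower. Spink1, a protease inhibitor gene, was 2.49-fold lower and passed with the block only (limma, blocked adjusted p = 0.0238, unblocked 0.667). Its knockout array was lower in all 3 pairs. Lhx1, Cxcr4 and Hhex differed by −0.34, −0.55 and −0.54. Over 12 surface ectoderm genes, 9 of them lower, the median was −0.04, with a mean level of 4.69 to 4.97 in wild-type and 4.79 to 4.97 in knockout arrays. There 8 were below every array's median, Tfap2b, Dlx5 and Krt17 among them also below every lower quartile, and Perp was the 1 gene with its groups apart, while Dlx3 and Wnt6 differed by −0.07 and −0.04.

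The 10 mesothelium and epicardium genes, which include Krt19, had 3 higher and 7 lower and a median of −0.11, with a mean level of 5.45 to 5.76 in wild-type and 5.18 to 5.51 in knockout arrays and Tbx18 below every lower quartile. Aldh1a2, which makes retinoic acid, read 5.89, 5.90 and 6.04 in wild-type and 4.53, 4.41 and 4.15 in knockout replicates. It was 2.99-fold lower and passed with the block only (limma, blocked adjusted p = 0.0194, unblocked 0.0542). Bnc1, which encodes the zinc finger protein basonuclin 1, read 6.17, 5.66 and 5.08 against 4.61, 4.28 and 3.93. It was 2.58-fold lower and passed with the block only (limma, blocked adjusted p = 0.0238, unblocked 0.585). Both were lower in all 3 pairs, so Krt19 was higher while these other genes of the list were lower. Their knockout values lay near the lower quartiles of those arrays, 4.28, 4.28 and 4.23 in replicates 1, 2 and 3. Without detection calls it is not known whether either was above background there. Lrrn4 and Upk1b differed by −0.22 and 0.07.

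The 12 haemangioblast and endothelial markers had 6 higher and 6 lower, with a median of −0.02 and pair medians of 0.55, −0.02 and −0.43. Their mean level was 7.71 to 7.97 in wild-type and 7.18 to 8.28 in knockout arrays, with Cd34 and Emcn below every lower quartile. In limma 0 passed. An unadjusted p under 0.05 was found for 0 of the 12 (3.85% of all genes), and for 3 in the blocked fit (8.94% of all genes). Kdr, Etv2 and Lmo2 differed by −0.42, 0.46 and 0.62. The part of any of these cell types in the keratin differences was not tested.

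Genes whose levels ran most like those of Krt18 and Epcam over the 6 arrays were sought among 3301 others, which had a mean above the median of all probe sets and a range of at least 1, or were among the 7. Those most like Krt18 were Cth (Pearson r = 0.968), Rps4l (0.955), 6820431F20Rik (0.949), Apoe (0.945) and Itgb1 (0.942). Krt8 stood at rank 134 (r = 0.707) and Krt19 at rank 433 (r = 0.394). Krt18 was highest in replicate 3 of either genotype and Krt19 in replicate 1. Likeness within a genotype, or between Krt8 and Krt19, was not computed. Those most like Epcam were Efemp1 (0.977), Krt222 (0.974), Zic5 (0.967), Dab1 (0.966) and Socs2 (0.961). Cdh1 stood at rank 41 for Epcam (r = 0.825), and Krt18 at rank 2266 (r = 0.112). These are descriptions over 6 arrays that share 3 replicate numbers and 2 genotypes.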

How the data were processed

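Expression was measured on 6 Affymetrix arrays, and the values deposited by the authors are log2 expression levels per probe set. RMA and the affy package are named, without versions, per the submitters' processing notes. RMA as usually run sets arrays to a common distribution, so a shift shared by all genes would not be seen. Of 45101 probe sets, 34945 had exactly 1 gene in the array annotation, with symbols updated by gene ID to RefSeq (GRCm38.p6). The 932 with several genes, 9160 with none and 64 controls were not used for genes.

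Genotypes were compared with limma 3.58.1 (lmFit, eBayes; R 4.3.3, jsonlite 2.0.0), adjusted by Benjamini-Hochberg over 18193 genes. A second fit had the replicate number as a block; the labels do not explain the numbers, but each same-number correlation was over 0.1. P-values measure only the spread between these replicates. On simulated arrays of 18193 genes the unblocked fit recovered 6% of changes of 1 and 90% of changes of 2 with 0 false calls, and the blocked fit 99% and 100.0% with 15. These arrays kept the replicate structure, so the block's advantage was built in.

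The members and lists were chosen with earlier results of these data known. By rule, each list's named genes passed in either fit, had the 3 highest means, or had genotypes apart by at least 1. In lists, Krt10, Zfp42, Sparc, Gata3, Gsc, Foxa1 and markers below the lower quartile were named after their values were seen. The neighbours of Krt8 and Krt18 were too. The promoter search and the median without dim members were added once results were known. Plots were made in Python 3.11.15 with matplotlib 3.10.9. Precision is limited by the number of arrays.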

Additional observations from a re-analysis of the deposited data

How the results depend on the processing

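Over all 18193 genes, 4 passed in limma. The count was 62 with the replicate number as a block, 264 with the block and a trended robust variance, and 68 with array weights. With arrays left out singly or as a pair it ran from 1 to 6 without the block, and with the block it was 50, 267 and 815 without the arrays of number 1, 2 and 3. Of the 7 genes, Krt8, Krt18 and Krt19 passed with the block and trended robust variance, and 0 passed with array weights. The 3 blocked fits without a number rest on 2 pairs each. Krt19 passed in each of these 3, Cdh1 also without number 2, and Krt8 and Krt18 also without number 3. Number 2 is the pair in which Cdh1 went the other way (−0.78). The cause of these shifts in the count was not tested. The members' median of 0.65 ran from −0.035 to 0.72 with arrays left out and from 0.63 to 0.67 under the other settings, 0.66 without the dim Krt7 and Cldn6 among them. The difference was above 0 in 12 of 12 settings for Krt8 and in 13 of 13 for Krt18 and Krt19. Many of these settings could not have turned the sign, so the counts do not measure robustness. No array left out could turn it for Krt8 and Krt19, whose groups did not overlap, and no pair could for Krt18. The settings that average or drop probe sets returned the main values for Krt18 and Krt19. The difference changed sign in 2 of 13 for Cdh1 and in 1 each for Krt7, Epcam and Cldn6. The median of the 5 epithelial lists stayed between −0.08 and 0.08. Once probe sets designed for several transcripts are left out, Krt7, Krt8 and Epcam have none left, so that setting covers the other 4 genes. Dim probe sets limit what can be said of Krt7 and Cldn6.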
